A study of Drosophila melanogaster with 1908 samples.

Results

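The transcriptome of Drosophila melanogaster embryos collected 14-18 h after egg laying was compared with that of embryos collected at 10-14 h. Nuclei were taken by their collection window in the deposited cell table, in experiments 1, 3 and 10 of a sci-RNA-seq3 series. They number 63667 of the 547805 nuclei of the series, 33843 at 10-14 h and 29824 at 14-18 h. The unique molecular identifiers (UMIs, each standing for 1 captured transcript) of all nuclei of 1 experiment and window were summed, which gave 6 sums in 3 pairs. The series spans 11 overlapping collection windows in 7 experiments, and nuclei of several windows were processed together within an experiment. Both groups are pools of whole wild-type embryos of the Canton S strain that had been aged to their window and flash-frozen, and neither carried a treatment or a transgene. Separate collections of embryos for each experiment are not described in the sources used here, so p-values measure only the spread between these sums, which may be technical.

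Between these windows the embryo passes from organ formation to terminal differentiation. The epidermis and the tracheal tubes lay down chitin and cuticle proteins, muscles and neurons build their contractile and synaptic machinery, the gut lining begins to make digestive enzymes, and the fat body takes up its metabolic role. A pulse of the steroid hormone ecdysone controls cuticle formation in the embryo, and the nuclear receptor gene ftz-f1 is switched on as the hormone declines. In summed nuclei, a larger share of nuclei of a tissue and more RNA per nucleus cannot be told apart.

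Each nucleus was sampled thinly, with a mean of 412.7 to 557.2 UMIs in the 6 groups of nuclei, and the sums held 1868452 to 9497644 UMIs. The age that the authors inferred for each nucleus from its transcripts had medians of 12.3, 12.5 and 12.3 h at 10-14 h and 15.1, 15.1 and 15.6 h at 14-18 h in experiments 1, 3 and 10. No cell barcode was shared between the windows of an experiment. None of the markers of 15 tissues was at 0 in all 6 sums, and the fat body markers apolpp, Mtp and Apoltp reached the highest summed level. Experiment 3 stood apart from the other pairs. Its 14-18 h sum had a TMM factor (edgeR's correction of library size for composition) of 0.785, against 0.967 to 1.09 for the other 5. Ribosomal protein genes took 1.77% of its UMIs at 10-14 h and 1.15% at 14-18 h, whereas their share was higher at 14-18 h in experiment 1 (3.35% and 4.59%) and in experiment 10 (6.01% and 7.96%).

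The comparison asked which genes differed between the windows by more than the 3 pairs differed from each other. The called genes with the largest fold rises were CG18180, 3 Jonah proteases of the gut and CG14572, followed by the heat shock genes Hsp70Bc and Hsp68. The neurogenic genes sca and Tom, the ecdysone response genes Eip93F and ftz-f1 and the cuticle protein genes TwdlF and TwdlE rose by smaller factors. The genes that fell included phu, CG9449 and CG5171, whose levels were highest in fat body nuclei, and Jheh3, a juvenile hormone epoxide hydrolase. Of 9054 genes tested, 110 (1.21%) passed an adjusted p of 0.05 (edgeR quasi-likelihood, Benjamini-Hochberg) and 1269 passed an unadjusted p of 0.05. At 14-18 h 70 of the 110 (0.773% of the genes tested) were higher and 40 (0.442%) were lower. Each of the 110 moved in 1 direction in all 3 pairs, as did 17.6% of the genes tested upwards and 19.7% downwards. The median log2 fold change over all genes tested was -0.01.

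The number of calls depended on the experiments. Without experiment 3, 18.6% of genes passed, 1100 (10.8%) higher and 790 (7.76%) lower, and all 110 were among them. Without experiment 1, 60 of the 110 passed, and without experiment 10, 84 did. When library sizes were used without TMM factors, 36 genes were higher and 57 lower and the median over all genes moved from -0.01 to -0.08, but none of the 110 changed sign.

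**Figure D1:**
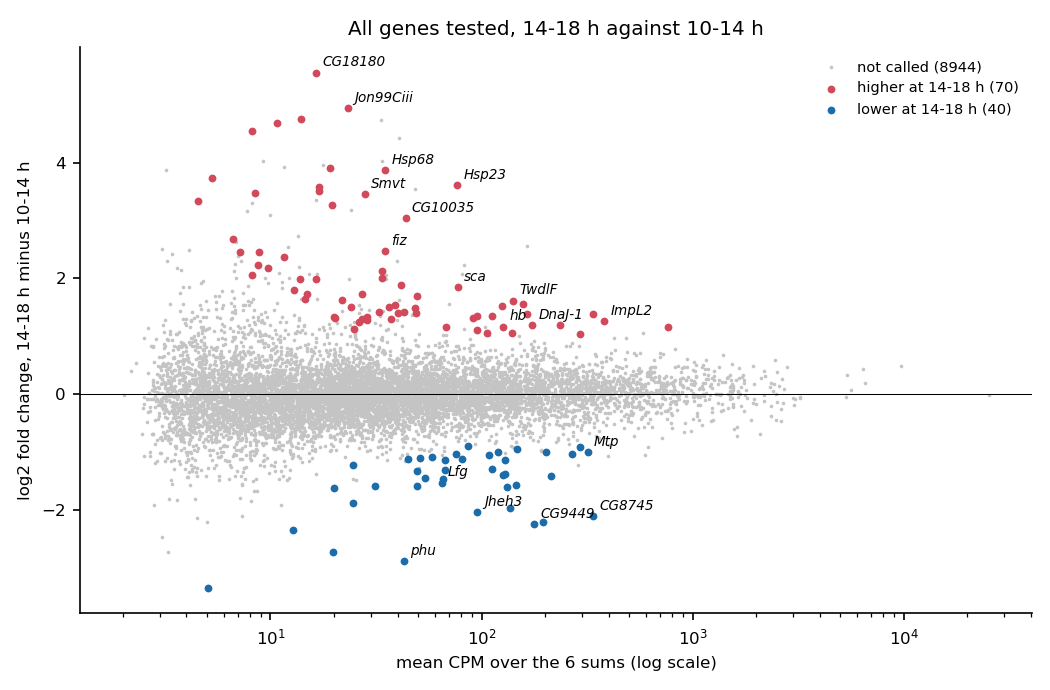
Log2 fold change between the windows (14-18 h minus 10-14 h) against the mean level over the 6 sums in CPM on a log axis, 1 point a gene. Red points are the 70 genes called higher at 14-18 h, blue points the 40 called lower and grey points the genes not called; CG18180 and Jon99Ciii lie highest among the called genes.

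Heat shock genes encode chaperones that refold damaged proteins, and several are also transcribed during normal development. Of the 15 heat shock genes tested 6 were called higher (0.773% of all genes were) and 0 lower, with a median log2 fold change of 0.57 against -0.01 over all genes. Hsp23 (FBgn0001224, 3L:9381882-9382765, dm6), a small heat shock protein, was in experiments 1, 3 and 10 at 10.6, 5.38 and 17.2 CPM at 10-14 h and 115.4, 58.3 and 254.01 CPM at 14-18 h (CPM, UMIs per 1000000 after scaling by TMM factors). Its lowest 14-18 h value lay above its highest 10-14 h value. The share of all genes tested without overlap between the windows was not counted. Absence of overlap is therefore given here and below as a description only. The log2 fold change was 3.60 ± 0.20 (SE, n = 3 pairs, edgeR adjusted p = 0.000787), a 12.2-fold difference. Hsp68 (FBgn0001230, 3R:24055080-24057310), a stress-inducible member of the Hsp70 class, was at 3.61, 4.48 and 4.6 CPM at 10-14 h and 43.5, 54.9 and 99.3 CPM at 14-18 h, with a log2 fold change of 3.87 ± 0.27 (edgeR adjusted p = 0.00215). The windows did not overlap for this gene either.

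Other called members were 3 of the near-identical Hsp70 copies, between which reads may have been divided in counting. Hsp70Bc was at 3.51, 0.897 and 2.15 CPM at 10-14 h and 34.9, 24 and 49.5 CPM at 14-18 h (log2 fold change 3.91 ± 0.35, edgeR adjusted p = 0.00505). Hsp70Aa and Hsp70Ab had log2 fold changes of 3.58 ± 0.55 and 3.50 ± 0.33 (edgeR adjusted p = 0.027 and 0.00575), and no copy overlapped between the windows. DnaJ-1, an Hsp40 co-chaperone, was higher by a smaller factor, at 94.1, 83.8 and 137.1 CPM at 10-14 h and 214.3, 181.7 and 333.2 CPM at 14-18 h (log2 fold change 1.20 ± 0.16, edgeR adjusted p = 0.0186). The other 9 members did not pass. The abundant chaperone Hsp83 was at 473.3, 560.04 and 548.5 CPM at 10-14 h and 692, 506.1 and 928 CPM at 14-18 h (edgeR adjusted p = 0.517). Hsf, the transcription factor that activates heat shock genes, was at 115.4, 124.2 and 120.8 CPM at 10-14 h and 147.2, 122.7 and 165.4 CPM at 14-18 h (edgeR adjusted p = 0.543). The endoplasmic reticulum chaperone Hsc70-3 was lower at 14-18 h in each pair, at 3069, 2489 and 2202 CPM at 10-14 h and 1661, 1709 and 1439 CPM at 14-18 h, without passing (edgeR adjusted p = 0.285).

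**Figure D2:**
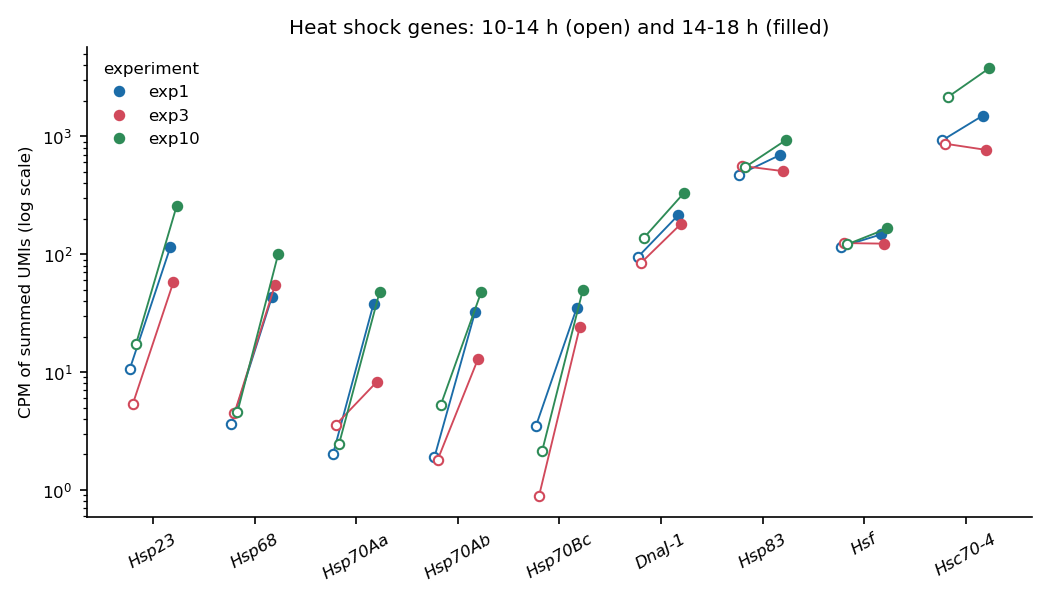
CPM of heat shock genes in the 6 sums on a log axis, 10-14 h as open and 14-18 h as filled circles, with a line joining the pair of each experiment. For Hsp23, Hsp68, the 3 Hsp70 copies and DnaJ-1 every 14-18 h value lies above every 10-14 h value, while Hsp83, Hsf and Hsc70-4 overlap between the windows.

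The higher level of Hsp23 was found in many nuclei and in each tissue examined. Its 1990 UMIs at 14-18 h lay in 1546 nuclei, and the 10 richest nuclei held 4.62% of them. With each nucleus thinned to 250 UMIs, Hsp23 was detected in 0.287%, 0.202% and 0.323% of the nuclei of experiments 1, 3 and 10 at 10-14 h and in 2.71%, 0.879% and 5.88% at 14-18 h (0.43%, 0.222% and 0.901% against 4.3%, 1.47% and 11.2% before thinning). In experiment 3, where the shares were lowest, the 95% Clopper-Pearson intervals of the thinned shares were 0.0969 to 0.371% and 0.62 to 1.21%, which cover counting error only. Nuclei were then grouped by tissue when they held UMIs of at least 2 marker genes of 1 tissue, or of GATAe or mex1 for the midgut, and met this for no other tissue. Across neuronal, somatic muscle, fat body, epidermal, tracheal and midgut nuclei, each pooled over the experiments, Hsp23 stood at 3.96 to 19.6 CPM (here without TMM factors) at 10-14 h and at 72.5 to 169.3 CPM at 14-18 h, and it was higher at 14-18 h in each of the 6. DnaJ-1 stood at 50.3 to 112.9 CPM at 10-14 h and at 118.2 to 310.5 CPM at 14-18 h over the same tissues. Within single experiments the exceptions were Hsp23 in midgut nuclei of experiment 3 (1 UMI and 0) and DnaJ-1 in neuronal nuclei of experiment 10 and muscle nuclei of experiment 3, which were lower at 14-18 h. RNA free in the suspension also enters nuclei of each tissue, and its part in these levels was not tested.

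The neighbouring windows of the same experiments, which share no nuclei with the compared groups, placed the 14-18 h values in a time course. In experiments 1, 3 and 10, Hsp23 was at 88.4, 43.6 and 108.9 CPM at 6-10 h, at 22.6, 9.95 and 16.3 CPM at 12-16 h and at 50.9, 8.02 and 69.8 CPM at 16-20 h. Hsp68 was at 141.1, 127.8 and 175.4, at 7.02, 9.12 and 4.59 and at 17.5, 11.4 and 27.6 CPM in those windows. In each experiment both genes were lower at 12-16 h and at 16-20 h than at 14-18 h, although these windows overlap in hours.

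A further set of rising genes takes part in Notch signalling and neurogenesis. Notch signalling holds most cells of a proneural cluster back from the neural fate, and the Bearded-family proteins Tom and Ocho inhibit it. Of the 24 genes of the Notch pathway and its E(spl) targets 2, Tom and Ocho, were called higher (0.773% of all genes were) and 0 lower, with a median log2 fold change of 0.44. Tom was at 83.4, 25.1 and 74.8 CPM at 10-14 h and 142.8, 65.8 and 176.4 CPM at 14-18 h, higher at 14-18 h in each pair although the windows overlapped across experiments (log2 fold change 1.11 ± 0.19, edgeR adjusted p = 0.0351, 0.129 without experiment 10). Ocho was at 13.1, 7.17 and 14.4 CPM at 10-14 h and 37.2, 18.5 and 30.9 CPM at 14-18 h with no overlap (log2 fold change 1.33 ± 0.23, edgeR adjusted p = 0.0399, 0.428 without experiment 1 and 0.0521 without experiment 10). The gene sca (FBgn0003326, 2R:12780541-12802010) encodes scabrous, a secreted protein that acts with Notch in the spacing of sensory organs. It was at 37.4, 37.7 and 24.8 CPM at 10-14 h and 111.03, 155.7 and 97.8 CPM at 14-18 h, again with no overlap (log2 fold change 1.85 ± 0.18, edgeR adjusted p = 0.00701). The neurogenic gene bib, which encodes a membrane protein of the aquaporin family, was 2.48-fold higher (edgeR adjusted p = 0.027).

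Among developmental regulators outside the Notch list, hb, tld, Six4 and jeb rose. The zinc finger factor hb (FBgn0001180, 3R:8690980-8697822) is a gap gene that later marks the earliest temporal identity of neuroblasts. It was at 64.6, 107.6 and 61.6 CPM at 10-14 h and 160.1, 240.7 and 125.6 CPM at 14-18 h with no overlap (log2 fold change 1.17 ± 0.16, edgeR adjusted p = 0.0208, 0.0727 without experiment 1). Of 24 neuroblast and temporal identity genes tested it alone was called (0.773% of all genes were called higher), and the list median was 0.40. The metalloprotease gene tld, whose product releases BMP ligands from their inhibitor, was at 3.81, 3.14 and 3.37 CPM at 10-14 h and 15.8, 13 and 19 CPM at 14-18 h with no overlap (log2 fold change 2.19 ± 0.32, edgeR adjusted p = 0.0219). It was the 1 called member of 26 BMP and EGF pathway genes (0.773% of all genes were called higher), whose median was 0.28. Six4, a homeobox factor of the mesoderm, was 4.17-fold higher (edgeR adjusted p = 0.0351, 0.0616 without experiment 1 and 0.0526 without experiment 10), and jeb, the ligand of the receptor Alk, was 2.65-fold higher (edgeR adjusted p = 0.0264).

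Levels of sca, hb and tld were also high in the 8-12 h window, which overlaps the 10-14 h window in hours. In experiments 1, 3 and 10, sca was at 366.7, 488.7 and 201.8 CPM at 8-12 h, at 34.3, 40.6 and 15.8 CPM at 12-16 h and at 33.2, 34.7 and 27.9 CPM at 16-20 h. The corresponding values of hb were 347.1, 468.2 and 245.8, then 46.3, 69.6 and 72, then 57.8, 99.6 and 43.7 CPM, and those of tld were 32.2, 34.9 and 30.8, 2.28, 0.829 and 2.04 and 5.86, 4.68 and 4.33 CPM. In each experiment their 14-18 h level lay above those at 12-16 h and 16-20 h. Nuclei with an inferred age under 10 h made up 1.89, 6.83 and 1.63% of the nuclei at 10-14 h and 2.49, 2.54 and 1.76% at 14-18 h. When nuclei with an inferred age outside their own window were left out, all but 1 of the 110 called genes could be tested and each of these passed. The inferred ages come from the same transcripts, and whether the collections held embryos of other ages was not tested.

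**Figure D3:**
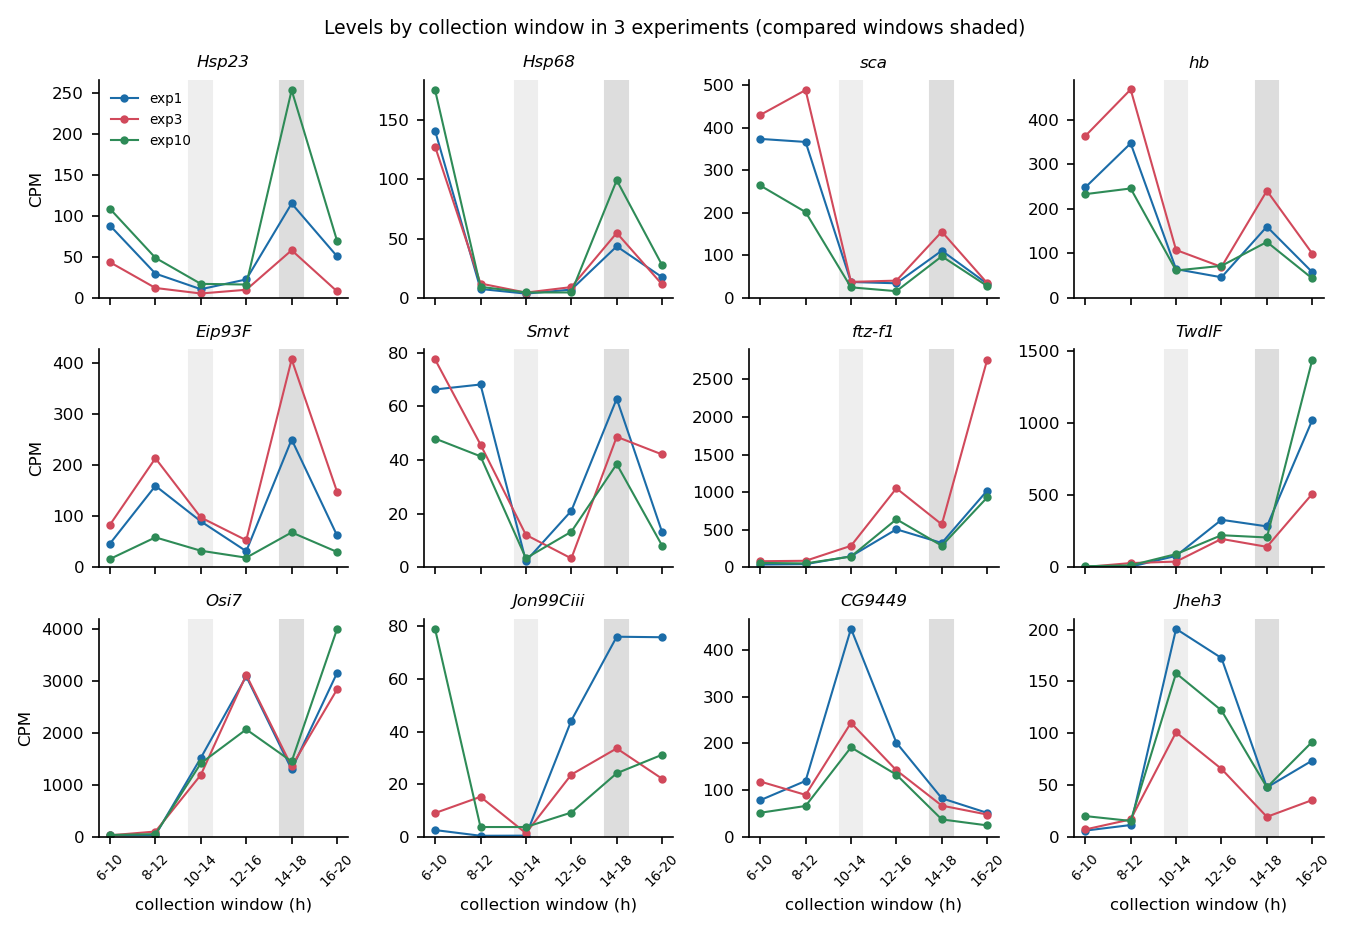
CPM of 12 genes by collection window in experiments 1, 3 and 10, each panel with its own linear axis and the compared windows shaded. Hsp23, Hsp68, sca, hb, Eip93F and Smvt are higher at 14-18 h than at 12-16 h and 16-20 h in all 3 experiments, and ftz-f1, TwdlF and Osi7 are lower at 14-18 h than at both.

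Genes of the ecdysone response and of the cuticle formed another group. Ecdysone acts through a cascade of nuclear receptors and other factors, and of 21 such genes tested 3 were called higher and 0 lower (0.773% and 0.442% of all genes were), with a list median of -0.00. The nuclear receptor gene ftz-f1 (FBgn0001078, 3L:18750607-18801309) was at 146.6, 285.6 and 143.2 CPM at 10-14 h and 323.4, 570.5 and 286.7 CPM at 14-18 h (log2 fold change 1.05 ± 0.17, edgeR adjusted p = 0.0271, 0.265 without experiment 1 and 0.151 without experiment 10). Eip93F (FBgn0264490, 3R:21949114-22014539), which encodes the transcription factor E93, was at 90.1, 97.7 and 32.5 CPM at 10-14 h and 250.8, 408.02 and 68.5 CPM at 14-18 h (log2 fold change 1.55 ± 0.21, edgeR adjusted p = 0.0208). Values of ftz-f1 did not overlap between the windows, and those of Eip93F did, with the higher value at 14-18 h in each pair. ImpL2, an ecdysone-inducible gene whose product binds insulin-like peptides, was at 224.5, 129.1 and 316.7 CPM at 10-14 h and 443.5, 349.05 and 819 CPM at 14-18 h (log2 fold change 1.26 ± 0.19, edgeR adjusted p = 0.0249). Cyp18a1, the cytochrome P450 that inactivates ecdysone, fell from 153.2, 91.9 and 91.4 CPM to 83.8, 48 and 48.9 CPM (log2 fold change -0.90 ± 0.16, edgeR adjusted p = 0.0453, 0.321 without experiment 1 and 0.163 without experiment 10). It was the 1 called member of 8 genes of ecdysone synthesis and breakdown (0.442% of all genes were called lower), whose median was -0.19.

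Tweedle proteins are structural proteins of the cuticle, and 2 of the 16 Tweedle genes tested were called higher (0.773% of all genes were) and 0 lower, with a median log2 fold change of 0.93. TwdlF (FBgn0037224, 3R:4247020-4248313) was at 79.4, 39.5 and 91.4 CPM at 10-14 h and 283.9, 141.9 and 206.9 CPM at 14-18 h with no overlap (log2 fold change 1.61 ± 0.19, edgeR adjusted p = 0.014). TwdlE was at 13.3, 12.1 and 12.3 CPM at 10-14 h and 39.1, 35 and 33.3 CPM at 14-18 h, a 2.84-fold difference without overlap (edgeR adjusted p = 0.0208, 0.0921 without experiment 1). Vajk4, of another family of cuticle proteins, was 3.09-fold higher (edgeR adjusted p = 0.0308, 0.0573 without experiment 10). Cht6, of the chitinase family, was 2.07-fold higher (edgeR adjusted p = 0.0393, 0.118 without experiment 1). Of 23 genes of chitin synthesis and matrix Cht6 alone was called (0.773% of all genes were called higher). By tissue, TwdlF was densest in tracheal nuclei, at 253.9 (222.7 to 288.3) CPM at 10-14 h and 1187 (1109 to 1268) CPM at 14-18 h, where parentheses hold 95% exact Poisson intervals that cover counting error only. In experiment 10 the tracheal level did not rise, at 428.1 and 426.1 CPM, against 216.01 and 1361 CPM in experiment 1 and 253.2 and 905 CPM in experiment 3. Epidermal nuclei held 69.7 (50.5 to 93.9) and 374.6 (327.4 to 426.8) CPM. Nuclei were taken as tracheal by UMIs of at least 2 of trh, btl, Gasp, serp and verm, so neither trh nor btl was required.

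For TwdlF, ftz-f1 and Osi7 the 14-18 h sums lay below both neighbouring windows in each experiment. TwdlF was at 329.6, 196.9 and 222.6 CPM at 12-16 h and 1022, 509.8 and 1439.8 CPM at 16-20 h in experiments 1, 3 and 10, and ftz-f1 was at 505.6, 1051 and 639.1 and 1021, 2762 and 929 CPM. Osi7, of the Osiris family, which is expressed in cuticle-forming epithelia, was at 1518, 1190.5 and 1414 CPM at 10-14 h and 1296, 1353 and 1449 CPM at 14-18 h and did not pass (edgeR adjusted p = 0.997). It was at 3088, 3115 and 2067 CPM at 12-16 h and 3154, 2837 and 3998 CPM at 16-20 h. None of the 13 Osiris genes tested was called by edgeR on UMIs or on counts of nuclei, or by DESeq2, and 2 passed an unadjusted p of 0.05. Over all genes edgeR on UMIs called 1.21%, edgeR on counts of nuclei 7.29% and DESeq2 2.68%. In edgeR on UMIs 14.02% of all genes passed an unadjusted p of 0.05.

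Among the called genes the largest fold changes were those of CG18180 and of 3 Jonah proteases, and those of CG18180, Jon99Ciii and Jon99Fi rested on few nuclei. Jonah proteases are secreted serine proteases of the digestive tract. Jon99Ciii (FBgn0003357, 3R:29922216-29923455) was at 0.401, 1.35 and 3.68 CPM at 10-14 h and 76.1, 33.6 and 24.1 CPM at 14-18 h, without overlap (log2 fold change 4.94 ± 0.77, edgeR adjusted p = 0.027). At 14-18 h its 836 UMIs lay in 150 nuclei, and the 10 richest nuclei held 76.2% of them. In experiment 3 all 49 UMIs came from 2 nuclei. Without thinning, Jon99Ciii was detected in 0.013%, 0.0606% and 0.187% of nuclei of experiments 1, 3 and 10 at 10-14 h. At 14-18 h the shares were 0.353%, 0.0475% and 1.39%, so in experiment 3 the share was lower. Jon99Fi and Jon99Fii, near-identical neighbours between which reads may be divided, had log2 fold changes of 4.74 ± 0.70 and 4.68 ± 0.75 (edgeR adjusted p = 0.0239 and 0.0279, 0.0591 for Jon99Fii without experiment 1). Jon99Fi was detected in 0.0174%, 0.0404% and 0.085% of nuclei at 10-14 h and in 0.244%, 0.0475% and 0.543% at 14-18 h, also without thinning. CG18180 was at 0.401, 0.448 and 1.53 CPM at 10-14 h and 74.1, 13.7 and 8.25 CPM at 14-18 h (log2 fold change 5.55 ± 0.86, edgeR adjusted p = 0.027), and in experiment 3 its 20 UMIs at 14-18 h came from 1 nucleus. In midgut nuclei Jon99Ciii stood at 1.98 (0.0501 to 11) CPM at 10-14 h and 385.8 (320.6 to 460.3) CPM at 14-18 h, where 9 nuclei held its UMIs, all but 2 of these UMIs in experiment 1 and 0 in experiment 3. These were 14.7% of its UMIs at 14-18 h, and fat body, muscle and neuronal nuclei held 47.1, 14.5 and 2.69 CPM. CG14572 was at 1.1, 0 and 0.613 CPM at 10-14 h and 21.8, 13.7 and 11.9 CPM at 14-18 h without overlap (log2 fold change 4.54 ± 0.49, edgeR adjusted p = 0.00838), and fat body nuclei held 54.2% of its UMIs at 14-18 h.

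Single nuclei rich in 1 transcript also set values that did not pass. In experiment 3 the 10-14 h sum held 296.8 CPM of CG7290, and all its UMIs there came from 1 nucleus, while its 14-18 h sum held 0 CPM. In experiments 1 and 10 CG7290 went from 1.2 to 15.9 CPM and from 5.52 to 9.78 CPM. Of all genes tested, 62 (0.685%) had at least 50% of their UMIs in 10 nuclei, as did 7 of the 70 genes called higher and 0 of the 40 called lower. In an alternative chosen after seeing the data, nuclei with a UMI were counted in place of UMIs. It called 7.29% of 8591 genes, 400 (4.66%) higher and 2.63% lower, and of the 110 genes 6 could not be tested and 1 of the others did not pass. The exception was CG7715, of which 10 nuclei held 74.2% of the 14-18 h UMIs and which had an edgeR adjusted p of 0.0208 on UMIs and 0.557 on counts of nuclei.

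Several falling genes were concentrated in nuclei of the fat body, the metabolic and lipid-storing organ. CG9449 (FBgn0036875, 3L:19492053-19497723) fell from 445.6, 243.9 and 191.3 CPM to 82.2, 66.5 and 37 CPM without overlap (log2 fold change -2.24 ± 0.19, edgeR adjusted p = 0.00424). At 10-14 h fat body nuclei held 69.7% of its UMIs and 8.5% of all UMIs. Within them it went from 3089.7 (2994 to 3188) to 514.1 (471.04 to 560.1) CPM, and from 3372, 1772 and 2955 to 600.2, 356.2 and 107.3 CPM in experiments 1, 3 and 10. In the other 5 tissues it stood at 19.6 to 69.3 and then 5.37 to 26.1 CPM. After thinning to 250 UMIs it was detected in 35.3% and 9% of fat body nuclei (43.5% and 13.7% before thinning) and in 0.402% and 0% of neuronal nuclei (0.482% and 0.223% before thinning), where a count of 0 allows, at 3 counts, a share of up to 0.335%. The 95% Clopper-Pearson intervals of the thinned shares in fat body nuclei were 33.4 to 37.1% and 7.82 to 10.3%. The mean depth was 476.7 and 472.7 UMIs in fat body nuclei and 409.97 and 415.6 UMIs in neuronal nuclei. Fat body nuclei made up 9, 7.29 and 3.76% of nuclei at 10-14 h and 8.06, 7.87 and 3.71% at 14-18 h.

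Several other falling genes had their highest level in fat body nuclei. The gene phu (FBgn0043791, 3R:9494801-9496723) fell from 116.3, 63.7 and 47.5 CPM to 12.6, 6.86 and 10.1 CPM (log2 fold change -2.88 ± 0.27, edgeR adjusted p = 0.00575) and stood at 382.8 and 35.3 CPM in fat body nuclei. CG5171 fell from 434.5, 251.1 and 280.9 CPM to 63.5, 60.3 and 85 CPM (log2 fold change -2.20 ± 0.23, edgeR adjusted p = 0.0078), with 1594 and 302.2 CPM in fat body nuclei. Neither gene overlapped between the windows. CG8745 was 4.29-fold lower (edgeR adjusted p = 0.0075), with 1657 and 512.2 CPM in fat body nuclei. The peroxiredoxin genes Prx2540-1 and Prx2540-2, near-identical copies whose reads may be divided between them, were 3.9-fold and 3.03-fold lower (edgeR adjusted p = 0.0075 and 0.027).

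Mtp (FBgn0266369, 2L:20919094-20922876), which encodes the microsomal triglyceride transfer protein that loads lipid onto lipoproteins and which is 1 of the 3 fat body markers, fell from 606.7, 338.5 and 337.9 CPM to 252.4, 183.8 and 189.2 CPM (log2 fold change -0.998 ± 0.181, edgeR adjusted p = 0.0466, 0.333 without experiment 1 and 0.0921 without experiment 10). It was the 1 called member of 22 fat body and lipoprotein genes (0.442% of all genes were called lower), whose median was 0.16. The main lipoprotein gene apolpp did not pass, at 23983, 38718 and 8193 CPM at 10-14 h and 20442, 53669.5 and 6790.4 CPM at 14-18 h (edgeR adjusted p = 0.997). The summed level of the 3 fat body markers went from 25335 to 21318 CPM in experiment 1, from 39686 to 54602 CPM in experiment 3 and from 8800.0 to 7214 CPM in experiment 10. Most of this sum was apolpp, and it includes Mtp. Levels of Mtp, CG9449, phu and CG5171 were lower at 14-18 h in each experiment. Whether the share of fat body nuclei has a part in these falls was not tested.

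Some rising genes were densest in fat body nuclei at 14-18 h. Smvt, named for the sodium-dependent multivitamin transporter, was at 2.31, 12.1 and 3.37 CPM at 10-14 h and 62.9, 48.7 and 38.5 CPM at 14-18 h over all nuclei without overlap (log2 fold change 3.46 ± 0.49, edgeR adjusted p = 0.021) and went from 9.49 (4.9 to 16.6) to 420.9 (382.02 to 462.7) CPM in fat body nuclei. CG8028 was at 4.32, 2.24 and 4.29 CPM at 10-14 h and 39.8, 30.2 and 36.1 CPM at 14-18 h (log2 fold change 3.27 ± 0.27, edgeR adjusted p = 0.00424), with 14.2 and 254.1 CPM in fat body nuclei. The oxidoreductase gene fiz was at 10.6, 15.7 and 7.05 CPM at 10-14 h and 63.3, 55.5 and 56.5 CPM at 14-18 h (log2 fold change 2.47 ± 0.27, edgeR adjusted p = 0.0086), with 21.4 and 330.6 CPM there. CG8028 and fiz did not overlap between the windows. Eip93F went from 288.7 (259.9 to 319.9) to 1180.3 (1115 to 1249) CPM in fat body nuclei, and hb from 119.4 (101.2 to 140.1) to 671.1 (621.8 to 723) CPM. The experiments differed in size for Smvt, Eip93F and hb. Smvt was at 10.4 and 32.2 CPM in fat body nuclei of experiment 10, 10.3 and 506.1 CPM in experiment 1 and 5.05 and 256.9 CPM in experiment 3. In experiment 10 Eip93F was at 198.4 and 246.8 CPM and hb at 114.9 and 160.97 CPM, against 292.7 and 1289 CPM and 107.2 and 701 CPM in experiment 1.

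**Figure D4:**
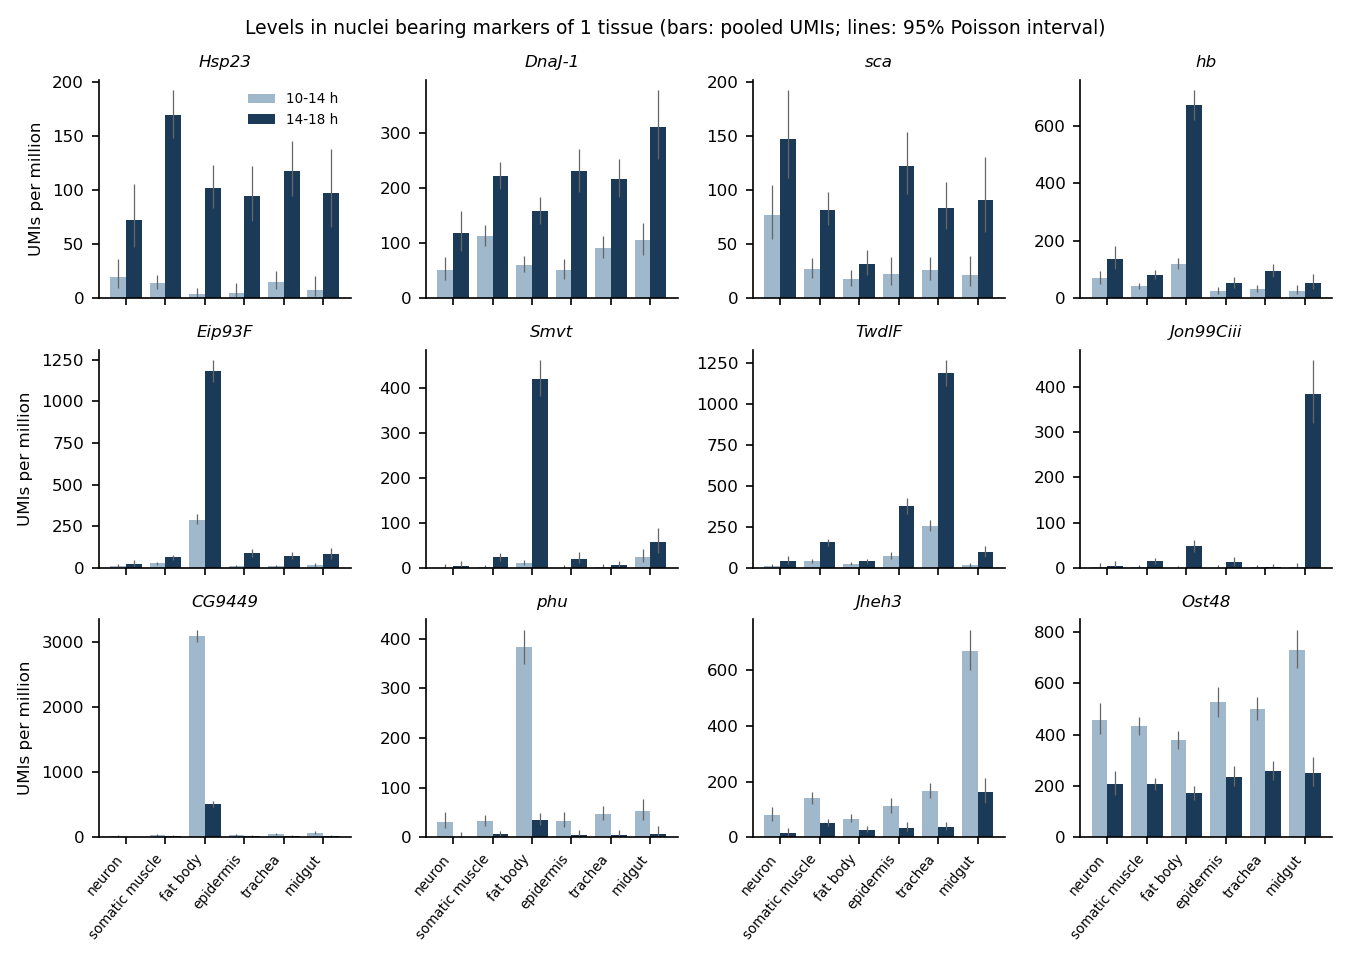
CPM (without TMM factors) of 12 genes in nuclei bearing markers of 1 tissue, pooled over the 3 experiments, at 10-14 h (light) and 14-18 h (dark), with 95% exact Poisson intervals. Hsp23, DnaJ-1 and sca are higher and Ost48 is lower at 14-18 h in each of the 6 tissues, and at 14-18 h hb, Eip93F, Smvt, CG9449 and phu are highest in fat body nuclei, TwdlF in tracheal and Jon99Ciii and Jheh3 in midgut nuclei.

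Among the other falling genes, Jheh3 and Lfg had their highest level in midgut nuclei, which held 12.3% and 11.5% of their UMIs and 3.39% of all UMIs at 10-14 h. In experiments 1, 3 and 10 midgut nuclei made up 3.87, 3.45 and 2.55% of nuclei at 10-14 h. Their share was lower at 14-18 h, at 2.87, 1.95 and 1.79%. Of the 23 midgut and endoderm genes tested 1 was called higher and 0 lower (0.773% and 0.442% of all genes were), with a median of 0.29. Jheh3, whose product degrades juvenile hormone, fell from 200.8, 100.9 and 157.9 CPM to 47.6, 19.2 and 47.7 CPM without overlap (log2 fold change -2.03 ± 0.19, edgeR adjusted p = 0.00575), and from 669.4 (599.9 to 745) to 163.1 (121.8 to 213.9) CPM in midgut nuclei. Lfg, of the Lifeguard family of membrane proteins, was 2.88-fold lower (edgeR adjusted p = 0.0184), with 435.7 and 175.6 CPM in midgut nuclei. The zinc finger gene sug, which responds to dietary sugar, was 2.74-fold lower (edgeR adjusted p = 0.0208, 0.0573 without experiment 1), with 238.1 and 54 CPM in fat body nuclei and 146.6 and 56.5 CPM in midgut nuclei. Agpat4, an acyltransferase of glycerolipid synthesis, was 2.64-fold lower (edgeR adjusted p = 0.021). Ost48, a subunit of the oligosaccharyltransferase that glycosylates proteins in the endoplasmic reticulum, fell from 564.5, 236.3 and 351.4 CPM to 280.2, 133.7 and 191.96 CPM (log2 fold change -0.90 ± 0.17, edgeR adjusted p = 0.0499, 0.325 without experiment 1 and 0.204 without experiment 10). It was lower in each of the 6 tissues, at 377.3 to 731 CPM at 10-14 h and 171.7 to 256.8 CPM at 14-18 h.

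Other genes with large changes were found in both directions. CG10035 was at 7.83, 12.6 and 8.28 CPM at 10-14 h and 92, 42.5 and 99 CPM at 14-18 h without overlap (log2 fold change 3.04 ± 0.37, edgeR adjusted p = 0.014). Bin1, which encodes a Bicoid-interacting protein of a histone deacetylase complex, was 3.68-fold higher (edgeR adjusted p = 0.0165). CG6006, Nepl11, a neprilysin-like gene, and CG15731 were 4.01-fold, 3.33-fold and 3.22-fold higher (edgeR adjusted p = 0.0128, 0.0337 and 0.0484, the last 0.0753 without experiment 1). CG17780, CG8112, CG10516 and CG18135 were 3.67-fold, 3.01-fold, 2.99-fold and 2.98-fold lower (edgeR adjusted p = 0.0168, 0.0168, 0.0208 and 0.0078, the first 0.0678 without experiment 1).

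At a background of 1.21% called, none of 30 sarcomere genes, 39 axon guidance genes, 22 glial genes, 54 cell cycle genes and 85 ribosomal protein genes passed in edgeR on UMIs. An unadjusted p of 0.05 was passed by 5, 2, 1, 10 and 1 of them (14.02% of all genes), with list medians of 0.10, 0.07, 0.00, 0.33 and 0.12. DESeq2 called 1 of the sarcomere genes and 2 of the cell cycle genes higher (1.63% of all genes) and none of the other 3 lists. On counts of nuclei edgeR called 13 cell cycle, 3 sarcomere, 2 axon guidance and 1 ribosomal protein gene higher (4.66% of all genes) and 1 glial gene lower (2.63%), and with UMIs capped at 3 per nucleus and gene it called 2 cell cycle and 2 sarcomere genes higher (1.61%). In many of the lists experiment 3 had a median of the opposite sign to experiments 1 and 10. Axon guidance genes were at -0.16, 0.60 and -0.20 in experiments 1, 3 and 10, and glial genes at -0.34, 0.46 and -0.07. The median log2 ratio of cell cycle genes was 0.52, -0.27 and 0.65 in experiments 1, 3 and 10, and that of ribosomal protein genes 0.40, -0.33 and 0.26. For cuticle proteins with the R&R domain it was 0.79, -0.64 and 0.22. For neuronal ion channel genes the medians were 0.02, 0.64 and -0.36, with experiment 10 below 0. Of the ion channel genes Hk, a potassium channel subunit, was called (2.51-fold higher, edgeR adjusted p = 0.0393, 0.212 without experiment 1). Without experiment 3, 35 of the cell cycle genes, 46 of the ribosomal protein genes and 14 of the sarcomere genes passed higher, against 10.8% of all genes. The 3 experiments lay close together for heat shock genes, at 0.81, 0.73 and 0.80.

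**Figure D5:**
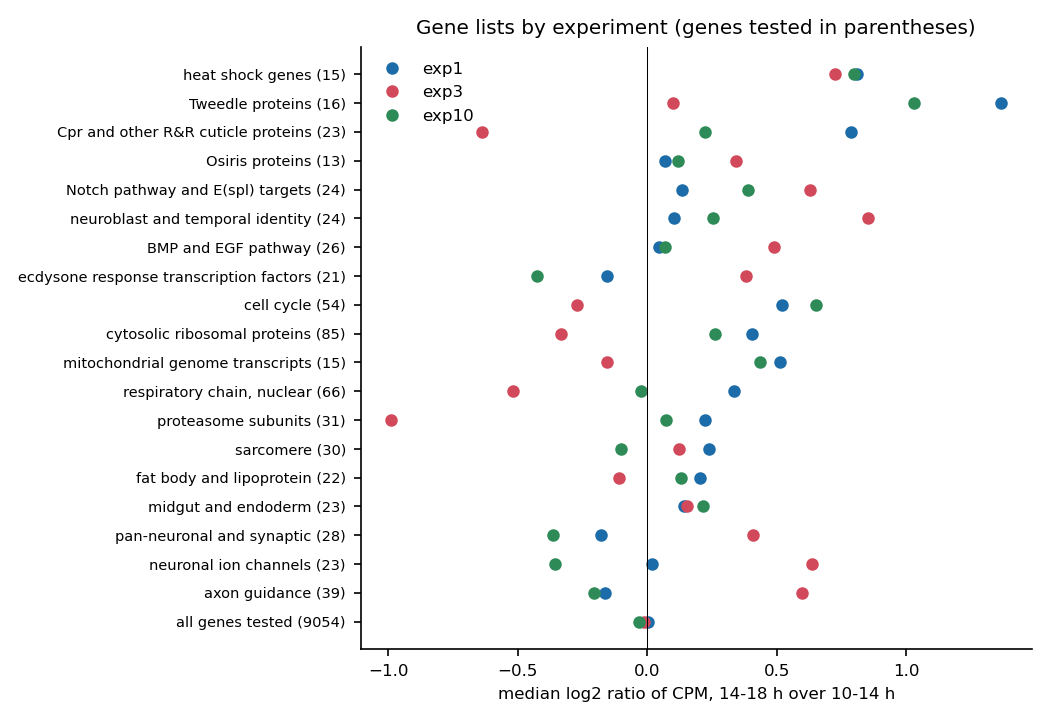
Median log2 ratio of CPM (14-18 h over 10-14 h) of the genes tested in each list, 1 point an experiment, with the number of genes tested in parentheses. Experiment 3 lies on the other side of 0 from experiments 1 and 10 for several lists, among them cell cycle, ribosomal protein, proteasome and axon guidance genes. The 3 experiments lie together for heat shock genes.

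The windows outside the comparison gave a further description of the called genes. Of the 70 genes called higher at 14-18 h, 39 (55.7%) were higher at 6-10 h than at 12-16 h in all 3 experiments, against 41.7% of all genes tested. From 12-16 h to 16-20 h, a comparison that shares the 12-16 h sums with the one before, 44 (62.9%) were higher in the later window in all 3, against 22.4% of all genes tested. Of the 40 genes called lower, 28 (70%) were lower at 16-20 h than at 12-16 h in all 3 experiments, against 20.6% of all genes tested, and 0 were higher. CG9449 continued to fall from 201.3, 142.2 and 132.7 to 51, 47.4 and 24.2 CPM between these windows.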

How the data were processed

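Nuclei of frozen embryos were profiled by sci-RNA-seq3, in which the reverse transcription barcode of a nucleus gives its window. Per the labels each sample is a PCR well of 1 experiment. The deposited counts are whole UMIs per gene and nucleus (23932 rows), aligned with STAR 2.7.3a to dm6 per the submitters' processing notes; the gene annotation used for counting is not stated. The authors had removed nuclei by limits on UMIs, genes and ribosomal share, and doublets, so no doublet caller was run. The deposited percent columns and the age scores inferred by the authors were described without a test.

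UMIs were summed per experiment and window, filtered with filterByExpr, scaled by TMM factors and tested with edgeR 4.0.16 (quasi-likelihood, experiment as a block, adjusted p of 0.05); DESeq2 1.42.0 was an alternative. Pairing comes from the shared experiment: deviations from the window means correlated within an experiment (r = 0.41, 0.43 and 0.67). Between experiments r was -0.45 to -0.02. The deviations of a window cancel over the experiments, so positive values within experiments force negative ones between them on balance. The values between experiments are therefore no separate evidence for the pairing. On simulated counts of this comparison (8851 genes) the fit called 68.0% of 2-fold rises, 76.0% of 2-fold falls and 100% of 4-fold changes. Each kind of change was given to 50 genes with a mean of at least 20 CPM. Of the 8651 unchanged genes 0.474% were called. False calls were thus a larger share of the simulated calls than the threshold of 0.05 allows. Adjusted p-values of this fit may therefore be too low. CPM of the other windows used the same genes and reference. Log2 ratios within an experiment had 0.5 CPM added. CPM of tissue groups are plain UMIs per 1000000 of pooled nuclei.

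Named genes were the 12 rises and 12 falls of largest change among called genes with a mean of at least 20 CPM and 1 direction in all pairs, without transposon, mitochondrial, rRNA and histone rows, and up to 4 called and 3 abundant members of each of 52 lists. CG18180, CG14572, Jon99Fii, CG7290, bib, Six4, Vajk4, CG8028, Agpat4, sug, Ost48, Hsf, Hsp70Aa, DnaJ-1 and the genes of the closing observations were chosen after their values were seen. The comparison, genes and lists were chosen with earlier results of these data known. Of 9054 genes tested, 8294 matched a symbol in Ensembl release 115, whose dm6 coordinates are given. Whether counting used strand is not stated, so genes that overlap others in that annotation (Hsp68, sca, bib, ImpL2, CG7715, CG18180, fiz, Bin1, CG6006, Nepl11, Jheh3, Lfg, CG8112, CG18135 and Fpps among those named) may share reads. Figures used matplotlib 3.10.9.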

Additional observations from a re-analysis of the deposited data

How the results depend on the processing

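The calls were recomputed under 15 other settings, and none of the 110 called genes changed direction in a setting that tested it. As a percent of the genes tested, 1.21% were called, 0.773% higher and 0.442% lower. With no replicate block 0.0331% passed (3 genes, Hsp68, Hsp70Bc and CG8028), 0.0331% higher and 0% lower, and 3.42% had an unadjusted p under 0.05. DESeq2 with the replicate block gave 2.68% (1.63% and 1.05%) and no filter on low counts 3.35% (2.03% and 1.33%). Nuclei with at least 400 UMIs gave 0.446% (0.289% and 0.157%), nuclei with an inferred age in their own window 6.36% (4.06% and 2.30%), and all windows in 1 fit 2.87% (1.71% and 1.16%). Library sizes without TMM factors gave 1.03%, 0.398% higher and 0.630% lower. Counts of nuclei gave 7.29% (4.66% and 2.63%) and UMIs capped at 3 per nucleus and gene 2.58% (1.61% and 0.966%), both chosen after seeing the data. A filter of 20 CPM in 3 sums (1.94%), thinned sums (1.88%) and leaving out transposon, mitochondrial, ribosomal protein and histone rows (1.21%) kept the number called within 1.5 times. Leaving out 1 experiment gave 0.929% to 18.6%, 0.566% to 10.8% higher and 0.362% to 7.76% lower, the highest without experiment 3. Of the called genes followed singly, all but 3 no longer passed with no replicate block, 70 with at least 400 UMIs, 49 without experiment 1, 41 without TMM factors and 26 without experiment 10; fewer nuclei or experiments entered some of these fits, and the cause was otherwise not tested. The sums rest on a mean of 412.7 to 557.2 UMIs a nucleus. With 3 pairs 68% of simulated 2-fold rises were called in genes with a mean of at least 20 CPM. Smaller changes, and changes in genes below that level, were not simulated.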

Other observations

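Genes named Uhg host small nucleolar RNAs in their introns, and they were examined after their values had been seen. All 6 tested were lower at 14-18 h in each of the 3 experiments (19.7% of all genes were), with a median log2 fold change of -1.05. On UMIs 0 passed in edgeR (0.442% of all genes passed lower). Each of the 6 had an unadjusted p under 0.05 there, as did 14.02% of all genes in either direction. In DESeq2 1 passed lower (1.05% of all genes), whereas 6 passed lower on counts of nuclei (2.63% of all genes). Uhg5 was at 90, 51.1 and 39.9 CPM at 10-14 h and 45.9, 34.3 and 17.1 CPM at 14-18 h in experiments 1, 3 and 10 (edgeR adjusted p = 0.0958), and Uhg2 was at 74.7, 23.3 and 31.9 CPM at 10-14 h and 34.6, 15.1 and 11.9 CPM at 14-18 h (edgeR adjusted p = 0.0858).

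The 5 tested oligosaccharyltransferase genes, examined for the same reason, had a median of -0.73. Each was lower in all 3 experiments (19.7% of all genes were), Ost48 passed on UMIs (0.442% passed lower) and 3 passed on counts of nuclei (2.63% passed lower). Ostgamma was at 254.6, 98.6 and 188.3 CPM at 10-14 h and 126.3, 73.4 and 84.4 CPM at 14-18 h (edgeR adjusted p = 0.0817).

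Of 16 Jonah protease genes 10 could be tested and 3 were called higher on UMIs (0.773% of all genes) and 2 on counts of nuclei (4.66%), and the median was 3.95. Jon99Cii was at 0.301, 0.448 and 9.2 CPM at 10-14 h and 132.3, 24 and 34.2 CPM at 14-18 h without passing (edgeR adjusted p = 0.104). Jon25Bii was at 0, 52.5 and 2.15 CPM at 10-14 h and 25.4, 0 and 6.11 CPM at 14-18 h, so experiment 3 ran against experiment 1.

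Fpps, which makes farnesyl diphosphate in the mevalonate pathway, was at 86.5, 54.7 and 124.8 CPM at 10-14 h and 200.1, 135.1 and 383.6 CPM at 14-18 h (edgeR adjusted p = 0.014). The neuroblast gene wor, which encodes a Snail-family factor, was at 15, 7.17 and 40.8 CPM at 10-14 h and 28.5, 28.8 and 78.9 CPM at 14-18 h and did not pass on UMIs (edgeR adjusted p = 0.0861) but did on counts of nuclei (edgeR adjusted p = 0.00263).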
